A study of Mus musculus with 8 samples.

Results

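The 10 genes described here are *Postn*, *Cthrc1*, *Fap*, *Tnc*, *Fn1*, *Sparc*, *Lrrc15*, *Meox1*, *Ddah1*, and *Sfrp1*, taken by name as genes associated with activated fibroblasts and their matricellular products, out of 54532 genes in the deposited table. All 10 were found by symbol and all 10 entered the test, which covered 15708 genes. MICFs, which are cardiac fibroblasts obtained from adult mice after myocardial infarction (MI), carried tetracycline-inducible lentiviruses for MGT (one construct holding *Mef2c*, *Gata4*, and *Tbx5*), for *Myocd*, for *Sall4*, and for eGFP in all 4 groups. The cells came from 8-week-old male C57BL/6 mice at Day 6 after ligation of the left anterior descending artery. For the *in vivo* groups infected cells were injected into the left ventricle of freshly ligated mice, which received doxycycline in the drinking water and daily tacrolimus, methylprednisolone, and mycophenolate mofetil, and eGFP+ cells were sorted back after 1 week (day 7) or 2 weeks (day 14). For the *in vitro* groups the same kind of cells stayed in a reprogramming medium with doxycycline for the same times, and eGFP+ cells were sorted there too. The medium also held SB431542 (an inhibitor of the TGF-β receptor kinase) and baricitinib (a JAK inhibitor). The heart environment and the immunosuppressants on one side, and the culture and its 2 inhibitors on the other, therefore cannot be told apart. Each of the 4 groups has 2 libraries, and whether these come from separate animals or wells is not given in the sources used here, so that the p-values measure the spread between these libraries, which may be technical.

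After an infarct, resident fibroblasts become activated, proliferate, and fill the lost muscle with collagen and with matricellular proteins, which are secreted into the matrix and act on cell adhesion and on growth factors more than as structural fibers. TGF-β is a main inducer of this state, and many of its genes fall again as the scar matures. In direct reprogramming, in which fibroblasts are turned toward cardiomyocytes by transcription factors, loss of the fibroblast program is one side of the conversion.

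The libraries held between 12304242 and 14546904 fragments on genes. The defining markers of fibroblasts were present in every library, with 10 of 10 at 1 FPKM (fragments scaled by gene length and by library size) or more in each group. Transcripts of the 5 reprogramming factors were present in every library, and whether they came from the virus or from the gene of the cell was not analysed here. *Gata4* lay between 35.9 and 38.0 FPKM *in vivo* and between 52.6 and 73.2 FPKM *in vitro*, *Sall4* between 4.09 and 6.39 against 10.7 and 17.2 FPKM, and *Myocd* between 1.75 and 2.11 against 3.83 and 4.77 FPKM. *Tbx5* lay between 5.59 and 6.92 FPKM *in vivo* against 6.95 and 10.5 FPKM *in vitro*, and the *Mef2c* values overlapped between the settings. Macrophage transcripts were also present throughout, led by *Lyz2*, with all 11 listed markers at 1 FPKM or more in every group. The summed level of the 11 macrophage markers was 2680 to 3084 FPKM *in vivo* against 5203 to 5933 FPKM *in vitro* at 1 week, and 1942 to 2333 against 4852 to 5949 FPKM at 2 weeks. *Lyz2* made up most of the gap at both weeks, with means of 1392 FPKM *in vivo* and 3794 FPKM *in vitro* at 1 week, and 1088 against 3316 FPKM at 2 weeks. Of the 11 markers 1 was called higher *in vivo*, 1 lower, and 9 neither at 1 week, and 6 were called lower and 5 neither at 2 weeks. Among all tested genes 7.79% were called higher and 5.07% lower at 1 week, and 9.02% and 8.05% at 2 weeks. The counts of 1 at 1 week are therefore not read as a result about these markers. In bulk libraries of this kind, fewer cells of a type and less RNA per cell cannot be told apart.

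RefSeq promoter windows (build GRCm38.p6) were matched for 5 of the 10 genes, and the 250 bases before the annotated start are shown because these genes moved together between the groups. The windows are chr3:54360857-54361106 (plus strand) for *Postn*, chr4:64047016-64047265 (minus strand) for *Tnc*, chr11:55420081-55420330 (minus strand) for *Sparc*, chr16:30283255-30283504 (minus strand) for *Lrrc15*, and chr3:145758442-145758691 (plus strand) for *Ddah1*. Each is written 5′ to 3′ in the direction of the gene, with matches to the searched motifs in capitals.
Postn: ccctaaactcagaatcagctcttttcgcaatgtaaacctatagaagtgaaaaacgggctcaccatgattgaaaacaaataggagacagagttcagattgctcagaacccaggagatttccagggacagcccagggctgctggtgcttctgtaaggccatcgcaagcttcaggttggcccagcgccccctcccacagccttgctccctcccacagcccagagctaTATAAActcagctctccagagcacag
Tnc: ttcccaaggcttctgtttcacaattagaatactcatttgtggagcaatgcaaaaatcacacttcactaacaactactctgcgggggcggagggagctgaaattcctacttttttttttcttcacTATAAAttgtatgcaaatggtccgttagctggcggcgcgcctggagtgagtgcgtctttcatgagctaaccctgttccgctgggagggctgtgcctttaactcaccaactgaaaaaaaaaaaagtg
Sparc: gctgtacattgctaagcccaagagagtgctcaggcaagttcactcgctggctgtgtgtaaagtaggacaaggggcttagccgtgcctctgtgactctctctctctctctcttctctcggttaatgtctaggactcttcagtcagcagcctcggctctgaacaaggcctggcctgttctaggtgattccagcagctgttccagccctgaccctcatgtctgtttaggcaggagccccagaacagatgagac
Lrrc15: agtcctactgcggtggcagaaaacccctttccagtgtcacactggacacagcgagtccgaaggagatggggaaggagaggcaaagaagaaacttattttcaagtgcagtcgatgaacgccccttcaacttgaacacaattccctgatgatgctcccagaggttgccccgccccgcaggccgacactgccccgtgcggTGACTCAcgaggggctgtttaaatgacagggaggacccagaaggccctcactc
Ddah1: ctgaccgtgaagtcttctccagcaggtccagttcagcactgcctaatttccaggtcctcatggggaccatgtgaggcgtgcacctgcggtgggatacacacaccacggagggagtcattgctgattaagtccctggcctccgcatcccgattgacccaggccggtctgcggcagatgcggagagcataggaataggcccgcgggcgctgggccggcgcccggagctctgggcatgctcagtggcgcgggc

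The TATA box was searched on both strands as TATAAA. *Postn* held TATAAA with its first base 26 bases before the start, and *Tnc* held TATAAA 126 bases before the start, a motif found in 12.4% of all 32817 windows of this length. The site of AP-1 was searched as TGANTCA, which 6.75% of all windows held. *Lrrc15* held it with its first base 53 bases before the start. The box named CCAAT, present in 33.8% of all windows, was found in none of the 5. The same held for the element CATTCC, which TEAD factors bind and 12.6% of windows contained. The palindrome GTCTAGAC, which SMAD proteins bind, occurred in 0.168% of all windows and in none of the 5. No searched motif overlapped another in these windows. The *Sparc* window belongs to a RefSeq start 3103 bases from the GENCODE start of the gene, and lies inside the gene. Motifs absent there do not describe the GENCODE start. In the other windows this distance was at most 17 bases. These matches describe the letters of the windows and carry no information on binding.

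All 10 genes were expressed at higher levels in the *in vivo* samples than in the *in vitro* samples at both weeks. A gene was called when its adjusted p in limma, fitted over all tested genes with Benjamini-Hochberg adjustment, was under 0.01 and its level differed more than 2-fold. At 1 week 10 of 10 genes were called higher *in vivo*, where 7.79% of all tested genes were called higher, and at 2 weeks again 10 of 10, where 9.02% of all tested genes were. All 10 were called higher at both weeks, as were 5.54% of all tested genes. For each of the 10 genes the lowest of the 4 *in vivo* libraries lay above the highest of the 4 *in vitro* libraries, a separation seen in 20.5% of tested genes. The median log2 fold change of the 10 genes was 3.54 at 1 week and 3.21 at 2 weeks, beside medians over all tested genes of -0.0058 and -0.0034. With *Lrrc15*, whose *in vitro* counts never exceeded 3, set to its ratio to 3 fragments, the medians were 3.54 and 3.81. That ratio is a lower bound at 1 week and not at 2 weeks. The genes were picked with earlier results of these data known, so these counts describe the chosen genes.

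**Figure D1:**
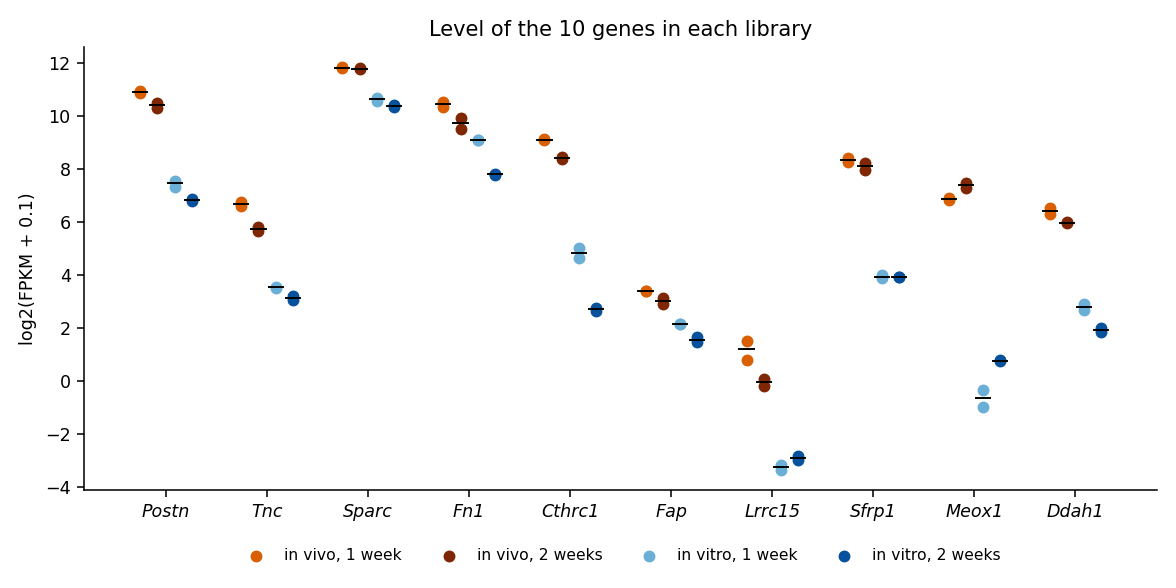
Level of each of the 10 genes as log2(FPKM + 0.1) in the 8 libraries, with 1 point for each library, colors for the 4 groups, and short black lines for the group means. In every gene the 4 *in vivo* points lie above the 4 *in vitro* points.

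*Postn* encodes periostin, a secreted matricellular protein that binds collagen and integrins and is the classic marker of activated cardiac fibroblasts (chromosome 3, 54361109 to 54391037, GRCm38). *Postn* measured 1985 and 1897 FPKM *in vivo* and 191 and 162 FPKM *in vitro* at 1 week. At 2 weeks it measured 1439 and 1282.5 FPKM *in vivo* and 112 and 118 FPKM *in vitro*. It was among the 21 most abundant genes of each *in vivo* library, and its rank *in vitro* lay between 153 and 367. The mean level was 11.0-fold higher *in vivo* at 1 week (log2 fold change 3.46, SE 0.10, limma adjusted p = 1.53e-06) and 11.8-fold higher at 2 weeks (log2 fold change 3.56, SE 0.10, limma adjusted p = 1.13e-06).

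*Tnc* encodes tenascin-C, a large matricellular glycoprotein that appears in the heart after injury and is scarce in the healthy adult myocardium (chromosome 4, 63959785 to 64047015). *Tnc* measured 98.5 and 107.8 FPKM *in vivo* and 11.8 and 11.4 FPKM *in vitro* at 1 week. At 2 weeks it measured 56.8 and 51.0 FPKM *in vivo* and 9.29 and 8.28 FPKM *in vitro*. Both *in vivo* groups lay well above the culture, while the later *in vivo* libraries were lower than the earlier ones. The mean was 8.92-fold higher *in vivo* at 1 week (log2 fold change 3.14, SE 0.09, limma adjusted p = 1.31e-06) and 6.13-fold higher at 2 weeks (log2 fold change 2.60, SE 0.09, limma adjusted p = 2.21e-06).

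*Sparc* encodes osteonectin, a collagen-binding matricellular protein needed for the processing and assembly of collagen fibers (chromosome 11, 55394500 to 55423183). *Sparc* measured 3599 and 3663 FPKM *in vivo* and 1668 and 1530 FPKM *in vitro* at 1 week, and 3582 and 3481 against 1303 and 1380 FPKM at 2 weeks. It was the most abundant of the 10 genes in each group, ranking 3 or 4 among all genes in the *in vivo* libraries and between 12 and 18 in the *in vitro* libraries. The difference in mean level was the smallest of the 10 at both weeks, 2.27-fold (log2 fold change 1.18, SE 0.10, limma adjusted p = 0.000113) and 2.63-fold (log2 fold change 1.40, SE 0.10, limma adjusted p = 4.28e-05).

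*Fn1* encodes fibronectin, the adhesive matrix glycoprotein onto which cells assemble new collagen (chromosome 1, 71585520 to 71653200). *Fn1* measured 1296 and 1505 FPKM *in vivo* and 553 and 557 FPKM *in vitro* at 1 week, and 979 and 736 against 226 and 222 FPKM at 2 weeks. The pair of *in vivo* libraries at 2 weeks stood further apart than the other pairs, yet did not overlap the culture. The *in vivo* mean was 2.52-fold higher at 1 week and 3.83-fold higher at 2 weeks (limma adjusted p = 0.000383 and 5.58e-05).

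*Cthrc1* encodes a secreted protein with a collagen triple helix repeat that marks the matrix-producing fibroblasts of infarct scars (chromosome 15, 39076932 to 39087121). *Cthrc1* measured 560 and 544 FPKM *in vivo* and 32.5 and 24.8 FPKM *in vitro* at 1 week. At 2 weeks it measured 349 and 332 FPKM *in vivo* and 6.76 and 6.28 FPKM *in vitro*. It stood among the 135 most abundant genes of each *in vivo* library, and in the *in vitro* libraries at 2 weeks it ranked between 6175 and 6429. The difference was 19.3-fold at 1 week (log2 fold change 4.28, SE 0.12, limma adjusted p = 1.33e-06) and 52.2-fold at 2 weeks (log2 fold change 5.68, SE 0.12, limma adjusted p = 4.46e-07).

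Of the surface proteins, *Fap* encodes fibroblast activation protein, a membrane serine protease that is used as an imaging and therapy target on activated fibroblasts (chromosome 2, 62500943 to 62574075). *Fap* measured 10.6 and 10.5 FPKM *in vivo* and 4.34 and 4.34 FPKM *in vitro* at 1 week, and 7.48 and 8.67 against 3.05 and 2.73 FPKM at 2 weeks. Its level was low and its difference modest, 2.43-fold at 1 week (log2 fold change 1.26, SE 0.10, limma adjusted p = 0.000107) and 2.79-fold at 2 weeks (log2 fold change 1.45, SE 0.10, limma adjusted p = 4.59e-05).

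*Lrrc15* encodes a leucine-rich repeat membrane protein that is induced by TGF-β in myofibroblasts (chromosome 16, 30269302 to 30283256). *Lrrc15* was the least abundant of the 10 genes in each group, with 1.67 and 2.79 FPKM *in vivo* at 1 week (104 and 193 fragments) and 0.968 and 0.784 FPKM at 2 weeks (58 and 46 fragments). The *in vitro* libraries held 0 and 1 fragment at 1 week and 2 and 3 fragments at 2 weeks. At 1 week the mean *in vivo* level of *Lrrc15* was at least 59.0-fold above a floor of 3 fragments per library, which covers counting error alone. At 2 weeks the floor equals the higher *in vitro* count and leaves no room for counting error. The 21.1-fold found there is a ratio to 3 fragments and not a lower bound. The gene was called at both weeks (limma adjusted p = 0.00018 and 0.00104).

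*Sfrp1* encodes a secreted frizzled-related protein that binds Wnt ligands and holds back their signaling (chromosome 8, 23411502 to 23449632). *Sfrp1* measured 306 and 342 FPKM *in vivo* and 16.0 and 14.9 FPKM *in vitro* at 1 week, and 303 and 253 against 15.2 and 15.2 FPKM at 2 weeks. The levels were steady over the weeks in both settings, with a difference of 21.0-fold and then 18.3-fold (limma adjusted p = 6.19e-07 and 6.87e-07).

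*Meox1* encodes a homeobox transcription factor that acts in activated cardiac fibroblasts as a regulator of the profibrotic program (chromosome 11, 101877510 to 101894374). *Meox1* measured 114 and 121 FPKM *in vivo* and 0.408 and 0.691 FPKM *in vitro* at 1 week. At 2 weeks it measured 158 and 180.0 FPKM *in vivo* and 1.65 and 1.58 FPKM *in vitro*. The *in vitro* libraries held 14 to 51 fragments of the gene and the *in vivo* libraries 2969 to 4429. The ratio of the group means was 213 at 1 week and 104 at 2 weeks. On the log2(FPKM + 0.1) scale of the fit the differences were 7.53 (SE 0.19, limma adjusted p = 1.01e-06) and 6.62 (SE 0.19, limma adjusted p = 1.18e-06), the largest of the 10 genes, and ranked 4 and 13 among the 15708 tested genes.

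*Ddah1* encodes an enzyme that degrades asymmetric dimethylarginine, an inhibitor of nitric oxide synthases (chromosome 3, 145758675 to 145894277). *Ddah1* measured 79.1 and 92.0 FPKM *in vivo* and 7.42 and 6.40 FPKM *in vitro* at 1 week, and 64.9 and 62.1 against 3.52 and 3.91 FPKM at 2 weeks. The mean was 12.4-fold higher *in vivo* at 1 week and 17.1-fold higher at 2 weeks (limma adjusted p = 1.53e-06 and 9.36e-07).

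**Figure D2:**
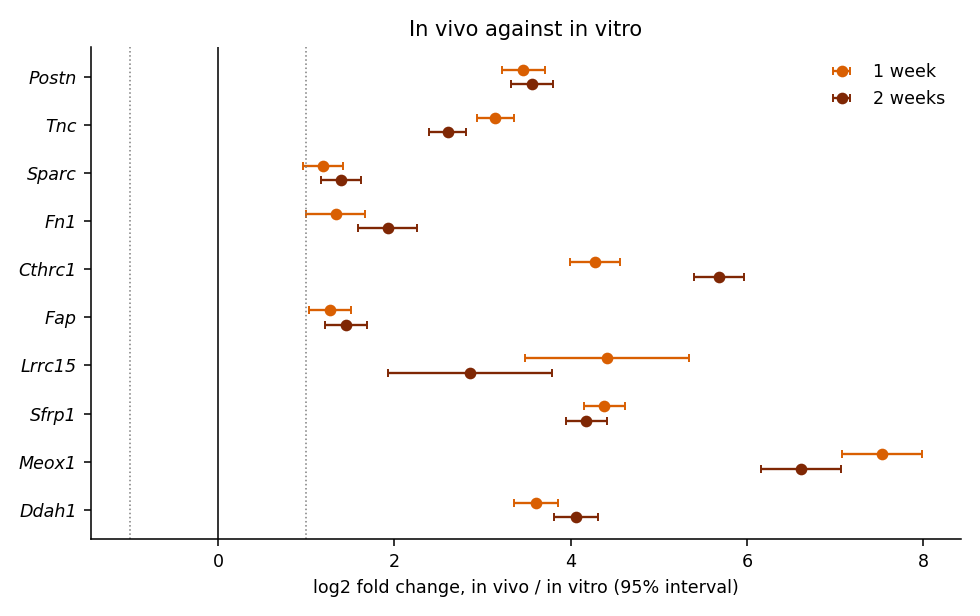
Log2 fold change of *in vivo* over *in vitro* samples for each of the 10 genes at 1 week and at 2 weeks, with bars for the 95% interval of the limma fit and dotted lines at a 2-fold change. All points lie to the right of the 2-fold line, from 1.18 for *Sparc* to 7.53 for *Meox1* at 1 week, and the points of *Lrrc15* depend on the pseudocount of 0.1.

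Deposited FPKM values were scaled between libraries, and this scaling bears on the 3 genes with the smallest differences. Without it the median log2 fold change over all tested genes moved to -0.34 at 1 week and -0.32 at 2 weeks, and at 1 week *Fap*, *Fn1*, and *Sparc* then fell under the 2-fold threshold with log2 fold changes of 0.93, 0.99, and 0.84. *Fn1* and *Sparc* also fell under it with quantile normalization, with 0.82 and 0.87. The direction was the same in these fits. *Tnc*, *Fn1*, and *Meox1* overlap a transcript on the opposite strand in GENCODE vM21, and with the strand setting of the counting not given in the sources used here, reads of the partners cannot be told apart. The partners *8030451A03Rik*, *Apol7d*, and *Gm11551* held at most 31, 10, and 17 fragments in any library. *Ddah1* overlaps the pseudogene *Rpl36a-ps2* on the same strand, which held 129 to 179 fragments. *Ddah1* itself held 455 and 381 fragments *in vitro* at 1 week and 194 and 212 at 2 weeks. The part of the pseudogene in the *in vitro* level of *Ddah1* was not tested.

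Within each group the levels of the 10 genes, compared per length, followed nearly the same order, and in no group did the values of neighbors in that order overlap between their 2 libraries. The *in vivo* order at 1 week was *Sparc*, *Postn*, *Fn1*, *Cthrc1*, *Sfrp1*, *Meox1*, *Tnc*, *Ddah1*, *Fap*, and *Lrrc15*, and at 2 weeks *Ddah1* stood above *Tnc*. In the *in vitro* groups *Fn1* stood above *Postn*, and *Meox1* dropped to the place before *Lrrc15*. *Cthrc1* stood at place 4 in 3 groups and at place 6 in the *in vitro* group at 2 weeks. The 10 genes together took 4.54% and 4.65% of all fragments *in vivo* and 1.69% and 1.60% *in vitro* at 1 week. At 2 weeks they took 3.50% and 3.20% against 0.981% and 0.986%. *Postn*, *Fn1*, and *Sparc* supplied between 92.3% and 98.2% of these fragments.

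From 1 week to 2 weeks most of the 10 genes had lower values in both settings, but few of these differences passed the test. *In vivo* 9 of 10 had a negative log2 fold change and 0 were called in limma, beside 1.23% of tested genes called higher and 0.949% called lower. The median log2 fold change over all tested genes *in vivo* was -0.0033. At an unadjusted p under 0.05 in limma there were 8 genes, 7 of them lower at 2 weeks. The share of all tested genes at that p was not counted, so the 8 are not read as a result about the 10 genes. A fit with limma voom on recovered fragments called 1, *Lrrc15*. *Tnc* came nearest, with a mean 1.92-fold higher at 1 week (log2 fold change -0.94, limma adjusted p = 0.0016), and was called when the first *in vivo* library of 2 weeks was left out (-1.01). For *Sparc* the log2 fold change *in vivo* was -0.04, with a 95% interval from -0.27 to 0.19.

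*In vitro* 3 of the 10 genes were called between the weeks. *Cthrc1* fell 4.39-fold (log2 fold change -2.11, limma adjusted p = 0.000215) and *Fn1* fell 2.48-fold (log2 fold change -1.31, limma adjusted p = 0.00147), beside 1.05% of tested genes called lower. *Meox1* rose 2.95-fold from its low level (log2 fold change 1.44, limma adjusted p = 0.00322), beside 2.76% of tested genes called higher. The *Cthrc1* call was lost when the fit held the compared groups alone (limma adjusted p = 0.0163). The *Fn1* call was lost in that fit too (limma adjusted p = 0.0128), and when any of the 4 *in vitro* libraries was left out (limma adjusted p of 0.0145 to 0.0165), and the *Meox1* call was lost in 8 of 19 alternative fits, with limma adjusted p up to 0.0502. *Ddah1*, *Postn*, and *Fap* had limma adjusted p of 0.00231, 0.00708, and 0.00884 with log2 fold changes of -0.88, -0.61, and -0.57, under the 2-fold threshold. *Sfrp1* had a log2 fold change of -0.02 *in vitro*, with a 95% interval from -0.25 to 0.21.

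**Figure D3:**
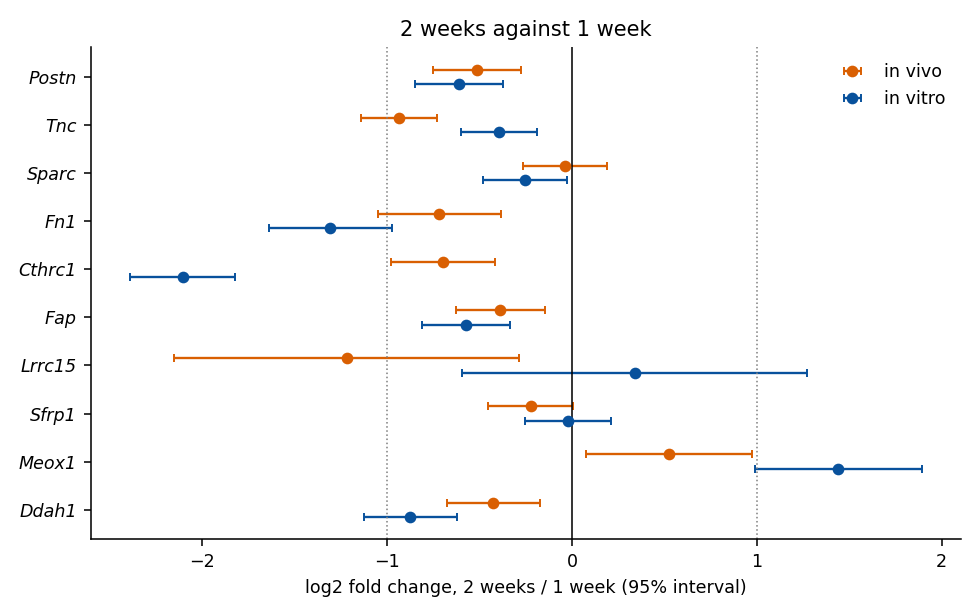
Log2 fold change from 1 week to 2 weeks for each of the 10 genes *in vivo* and *in vitro*, with bars for the 95% interval of the limma fit and dotted lines at a 2-fold change. *Cthrc1* *in vitro* lies furthest to the left at -2.11, and *Meox1* *in vitro* furthest to the right at 1.44.

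The difference between the *in vivo* and *in vitro* changes was then tested as an interaction of setting and week. It passed for 1 of 10 genes, *Cthrc1*, whose gap between the settings widened by 1.41 on the log2 scale (95% interval 1.01 to 1.81, limma adjusted p = 0.00623), where 0.573% of tested genes were called higher and 1.15% lower. The call was lost in 10 of 18 alternative fits, among them the fits without any one of 7 of the 8 libraries (limma adjusted p of 0.0153 to 0.0387), while the difference itself stayed between 1.22 and 1.60. For *Lrrc15* the difference was -1.56, with a 95% interval from -2.88 to -0.24 (limma adjusted p = 0.129), and its *in vitro* counts lie at the floor. For *Postn* it was 0.10, with a 95% interval from -0.24 to 0.44.

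Structural relatives of the 10 genes were examined next. Of 14 relatives 13 were tested, and at 1 week the *in vivo* samples were called higher for 7 and lower for 2, beside 5.07% of tested genes called lower. At 2 weeks they were called higher for 9 and lower for 2, beside 8.05% of tested genes called lower. *Tgfbi*, the paralog of *Postn*, was higher at both weeks (log2 fold changes 2.70 and 2.90), as was *Meox2*, the paralog of *Meox1* (2.89 and 3.27). *Tnn*, a tenascin like *Tnc*, was higher by 4.83 and 3.88 at a low level of 3.72 and 3.85 FPKM *in vivo*, whereas the tenascin *Tnxb* was not called (-0.72 and 0.34). Among the Wnt antagonists related to *Sfrp1*, *Sfrp2* was higher by 3.56 and 4.34 and reached 1168 FPKM *in vivo* at 2 weeks, while *Sfrp5* was lower (-3.45 and -3.95). *Dpp4*, the protease most closely related to *Fap*, was lower *in vivo* (-2.86 and -3.04). *Sparcl1* and *Smoc2*, which share domains with *Sparc*, were higher at both weeks, with 2.36 and 1.29 for *Sparcl1*, and *Ddah2*, the other isoenzyme of *Ddah1*, was called at 2 weeks (0.66 and 1.00).

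Other matricellular genes and other genes of the activated state were mostly higher *in vivo* as well. Of 15 other matricellular genes 12 were tested, of which 8 were called higher at each week. Called lower were 0 at 1 week and 1 at 2 weeks. Among all tested genes 7.79% and 9.02% were called higher and 5.07% and 8.05% lower at 1 and 2 weeks. *Comp*, a cartilage matrix thrombospondin, measured 171 ± 34.9 FPKM *in vivo* and 0.189 ± 0.0117 FPKM *in vitro* at 1 week and 1054 ± 24.7 against 0.614 ± 0.0621 FPKM at 2 weeks (SD, n = 2). *Thbs4*, thrombospondin-4, measured 123 ± 20.5 FPKM *in vivo* at 1 week (SD, n = 2), at least 2008-fold above the floor of 3 fragments in the *in vitro* libraries, which held 0 and 1. *Spp1*, osteopontin, was called lower at 2 weeks (log2 fold change -2.27). Of 24 other activation genes 20 were called higher at 1 week and 21 at 2 weeks, with 0 lower at either week and medians of 2.08 and 2.55. *Aspn*, a small leucine-rich proteoglycan, was higher by 5.91 and 4.61, and *Scx*, a tendon transcription factor, by 5.04 and 4.50. *Acta2*, smooth muscle actin of the contractile myofibroblast, did not share this direction, with 586 ± 19.9 FPKM *in vivo* against 788 ± 44.8 FPKM *in vitro* at 1 week and 414 ± 20.6 against 799.7 ± 20.2 FPKM at 2 weeks (SD, n = 2). Its log2 fold changes of -0.43 and -0.95 were under the 2-fold threshold (limma adjusted p = 0.00482 and 9.74e-05). *Tagln*, also on the activation list, was lower *in vivo* too, with log2 fold changes of -0.57 and -0.34 under that threshold (limma adjusted p = 0.00505 and 0.0358).

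Receptors of these matrix proteins and the upstream TGF-β pathway were examined last. Of 14 integrins and other receptors 13 were tested. The number called higher was 2 at each week, and the number called lower was 1 at 1 week and 3 at 2 weeks. Over all tested genes the shares were 7.79% and 9.02% higher and 5.07% and 8.05% lower, so that counts this small in 13 genes are not a result about the receptors. *Itga5*, the fibronectin receptor subunit, was higher at 1 week (log2 fold change 1.61), as was *Itgb3* (1.03). The integrin subunits *Itgb5* and *Itgb8* were higher at 2 weeks (1.51 and 1.33). *Itga8* was lower at both weeks (-2.38 and -1.65), and the proteoglycan receptor *Sdc4* at 2 weeks (-2.06). Of 12 genes of the TGF-β pathway 2 were called higher and 0 lower at each week, which in 12 genes is likewise no result about the list beside the same shares. *Tgfb3*, one of its ligands, measured 205 ± 4.08 FPKM *in vivo* and 48.0 ± 1.04 FPKM *in vitro* at 1 week (SD, n = 2), and the log2 fold changes were 2.09 and 2.05. The SMAD corepressor *Skil* was called at 1 week (1.08) and its relative *Ski* at 2 weeks (1.31). *Tgfb1* had log2 fold changes of -0.16 and -0.39, with limma adjusted p of 0.281 and 0.0199. *Tgfb2* had log2 fold changes of -0.80 and -0.76 (limma adjusted p = 0.000148 and 0.000146), under the 2-fold threshold.

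**Figure D4:**
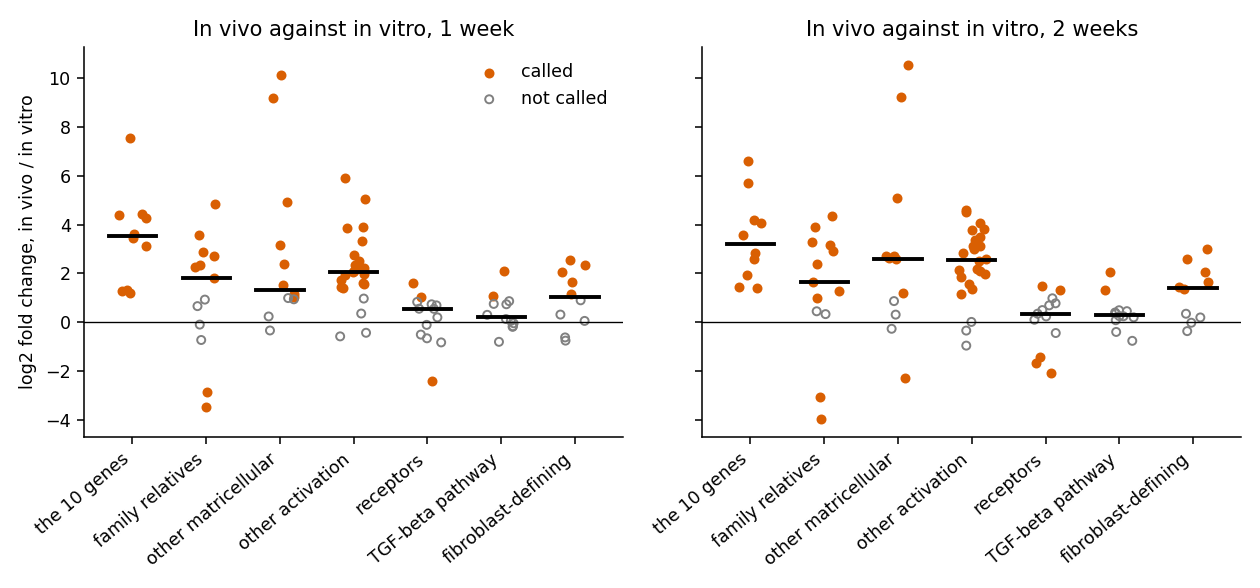
Log2 fold change of *in vivo* over *in vitro* samples for the tested genes of each list at 1 week (left) and 2 weeks (right), with filled points for called genes, open points for genes not called, and black lines for list medians. The 10 genes have the highest list median at both weeks, 3.54 and 3.21, and the TGF-β pathway list lies near 0.

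The higher levels of the 10 genes were not matched by all genes that define fibroblasts. *Pdgfra*, a receptor carried by fibroblasts of the heart, measured 20.8 ± 1.00 FPKM *in vivo* and 20.0 ± 0.280 FPKM *in vitro* at 1 week and 27.5 ± 0.380 against 23.9 ± 0.592 FPKM at 2 weeks (SD, n = 2). *Ddr2*, *Thy1*, and *Tcf21* were not called at either week, and their log2 fold changes lay between -0.75 and 0.35. *Col1a1* and *Col1a2*, which also belong to the activation list, were higher by 2.36 and 2.04 at 1 week. Of the 10 defining genes 5 were called higher at 1 week and 6 at 2 weeks, with 0 lower and medians of 1.03 and 1.41, and the smaller differences of *Sparc*, *Fap*, and *Fn1* were of this size. Of 13 markers of resident fibroblasts 2 were called lower at each week, while 8 at 1 week and 6 at 2 weeks were called higher. Among all tested genes 7.79% and 9.02% were called higher and 5.07% and 8.05% lower at 1 and 2 weeks. The 2 called lower are therefore not read as a result about this list. *Pi16* was higher *in vivo* (log2 fold changes 6.78 and 8.39), as was *Ly6a* (5.80 and 5.64), while *Hsd11b1* (-4.06 and -4.52) and *Inmt* (-2.72 and -3.25) were lower. *Dcn* and *Lum*, which were called higher at both weeks, and *Pdgfra* and *Tcf21*, which were not called, stand on both fibroblast lists.

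Marker lists of other cell types moved with the setting too. The 10 cardiomyocyte markers, which are also the readout of reprogramming, summed to 10.5 to 13.2 FPKM *in vivo* and 111 to 123 FPKM *in vitro* at 1 week, and to 18.0 to 25.8 against 557 to 631 FPKM at 2 weeks. Not every marker followed its sum. Of the 8 that were tested, 6 had a call of lower at each week. *Pln* was an exception at both weeks (log2 fold changes 2.51 and 3.97), and *Myl2* at 2 weeks (2.39), each with a call of higher. Both were scarce *in vitro*, where *Pln* held at most 4 fragments and *Myl2* at most 2 in any library. The 6 mesothelial markers summed to 13.1 to 14.6 FPKM *in vivo* against 234 to 240.1 FPKM *in vitro* at 1 week, and to 30.8 to 31.1 against 477 to 487 FPKM at 2 weeks. The 8 endothelial markers summed higher *in vivo*, with 152 to 161 against 58.8 to 60.0 FPKM at 1 week and 143 to 148 against 86.2 to 93.4 FPKM at 2 weeks. *Eng*, the most abundant of them, was not called at either week, with means of 72.7 FPKM *in vivo* and 38.0 FPKM *in vitro* at 1 week. Called higher were 6 of the 8 at 1 week and 3 at 2 weeks, with 0 lower. Among all tested genes 7.79% and 9.02% were called higher and 5.07% and 8.05% lower at 1 and 2 weeks. The 7 mural markers summed to 195 to 202 FPKM *in vivo* against 176 to 191 FPKM *in vitro* at 1 week and to 182 to 202 against 202 to 218 FPKM at 2 weeks. These close sums hold genes that went opposite ways, since at 1 week 4 were called higher and 2 lower, and in the later libraries 2 higher and 3 lower, among them *Rgs5* (log2 fold change 3.86 at 1 week) and *Notch3* (-1.54). The 6 lymphocyte markers stayed at or under 1.66 FPKM in sum and the 3 Schwann cell markers at or under 3.05 FPKM in every library, and *Ms4a1*, *Cd3e*, and *Cd3d* were at 0 in both *in vitro* libraries of 2 weeks. The part of these cell types in the levels of the 10 genes was not tested.

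**Figure D5:**
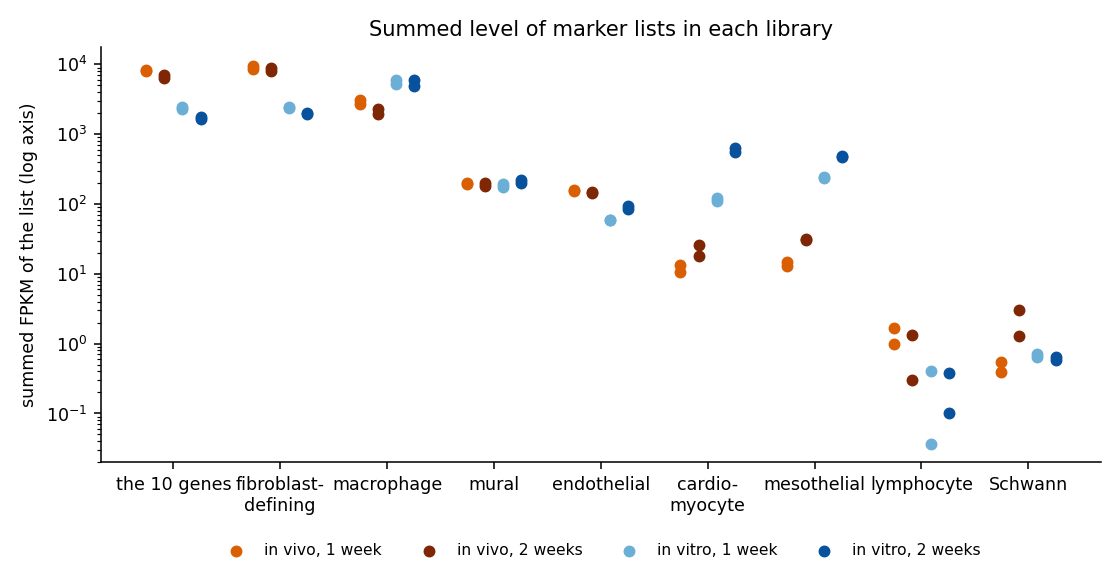
Summed FPKM (log axis) of the 10 genes and of 8 lists of cell type markers in each of the 8 libraries, with colors for the 4 groups. The 10 genes sum to between 6387 and 8284 FPKM *in vivo* and between 1680 and 2484 FPKM *in vitro*. The macrophage, cardiomyocyte, and mesothelial sums lie in the opposite order, the macrophage sum at both weeks mainly through *Lyz2*.

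Other protein-coding genes with a pattern close to that of each gene were found by Pearson's r of log2(FPKM + 0.1) over the 8 libraries, among 7100 tested genes with a mean of 5 FPKM or more. All such r rest mainly on the split between the 2 settings, and between 173 genes (for *Fn1*) and 557 genes (for *Sfrp1*) reached an r of 0.95. The closest patterns were those of *Slc39a13* and *Ext1* for *Postn*, *Lox* and *Col1a2* for *Cthrc1*, *Foxp1* and *Tmem167* for *Fap*, *Cxcl12* and *Csgalnact1* for *Tnc*, and *Mdfic* and *Actn1* for *Fn1*. They were those of *Kcnj15* and *Nedd9* for *Sparc*, *Palld* and *Serf1* for *Lrrc15*, *Pdgfrl* and *Ctgf* for *Meox1*, *Fstl1* and *Enpp1* for *Ddah1*, and *Dact1* and *Aldh1a3* for *Sfrp1*, with r between 0.993 and 0.999 for all 20. The log2 fold changes of *in vivo* over *in vitro* samples were 2.74 and 3.76 for *Lox* and 2.04 and 2.60 for *Col1a2*. The size of a change does not enter r. *Mdfic* changed by 0.43 and 0.66, less than *Fn1* (1.33 and 1.92). *Kcnj15* changed by 5.74 and 6.87, more than *Sparc* (1.18 and 1.40).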

How the data were processed

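RNA was taken from eGFP+ MICFs after 1 or 2 weeks *in vivo* or *in vitro*, 2 libraries per group. Per the labels it was amplified with a SMARTER mRNA-Seq kit, and the submitters' processing notes name CASAVA, HISAT2 2.0.5, and mm10. The counting tool and its strand setting are not given in the sources used here. The authors deposited one table of FPKM for 54532 genes. Dividing out gene length gave whole fragments for 100% of values (tolerance 0.02), and the library sizes behind the FPKM were 0.863 to 1.15 times the recovered totals, so the deposited FPKM had been scaled between libraries. The authors tested with DESeq2, which was not used here.

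Genes with 0.5 FPKM or more in at least 2 libraries (15708) were fitted as log2(FPKM + 0.1) in limma 3.58.1 (R 4.3.3) with 4 group means, all 8 libraries, and a variance trend. The fold changes are on that scale, which understates low genes. Calls needed an adjusted p under 0.01 and a log2 fold change beyond 1. The fit was tested on simulated data. Replicates differed beyond sampling noise in every group (chi-square 4.65 to 10.3 times its degrees of freedom). *Pln* and *Myl2* were named after their values were seen. The 10 genes and all lists were chosen with earlier results of these data known. All 10 were described, relatives could be named, and of every other list up to 2 called genes per direction and week were named by size of change. *Acta2*, *Tagln*, *Pdgfra*, *Ddr2*, *Thy1*, *Tcf21*, *Tgfb1*, *Tgfb2*, *Rgs5*, *Notch3*, *Eng*, *Dcn*, *Lum*, *Col1a1*, and *Col1a2* were named after their values were seen. The alternatives were other pseudocounts, filters, scalings, variance settings, sample sets, a replicate block, limma voom on recovered fragments, another threshold, and leaving out each library.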

Additional observations from a re-analysis of the deposited data

Results flagged for a closer look

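The *in vivo* against *in vitro* change differed between the weeks for *Cthrc1*. Its log2 fold changes were 4.28 and then 5.68, and the tested difference was 1.41 (limma adjusted p = 0.00623), with 2 libraries per group. The mean fell from 28.6 to 6.52 FPKM *in vitro* and from 552 to 340.1 FPKM *in vivo*. The limma adjusted p ranged from 0.000463 to 0.0387 over the alternatives. Groups of 2 libraries are too small for the test of single outlying samples.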

How the results depend on the processing

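The 10 calls *in vivo* against *in vitro* held in most fits: over 199 alternative values of single genes at each week, 5 at 1 week (*Fap*, *Fn1*, and *Sparc* under other scalings) and 1 at 2 weeks (*Lrrc15* with a pseudocount of 1, log2 fold change 0.86) lost the call and 0 changed direction. *Lrrc15* was not tested at a mean FPKM of at least 5. Changes over time moved more. The number of the 10 genes called for the difference between weeks, 1 as reported, was 0 without a filter, 0 without a variance trend, and 0 with the replicate block, and 0 to 1 with 1 library left out; at an adjusted p under 0.05 and any fold 1 gene was lower. The replicate numbers did not pair the libraries (correlations of -0.0477 to -0.0107 between deviations of same-numbered libraries). *In vivo* the number lower at 2 weeks, 0 as reported, was 1 with limma voom, 6 at the looser threshold, and 0 to 1 with 1 library left out. *In vitro* the number higher, 1 as reported, was 0 with a pseudocount of 1, with limma voom, without a variance trend, and with the compared groups alone, and 0 to 1 with 1 library left out. The number lower, 2 as reported, was 0 with the compared groups alone, 6 at the looser threshold, and 1 to 2 with 1 library left out. Direction changed for 3 values near 0: *Postn* between weeks (-0.019 to 0.213 with 1 library left out, the lowest without the first *in vitro* library of 1 week), *Sparc* *in vivo* over time (0.085 with quantile normalization), and *Sfrp1* *in vitro* over time (-0.070 to 0.029, the highest without the same library). At a mean FPKM of at least 5 the relatives called lower were 0 at both weeks, since *Dpp4* and *Sfrp5* were not tested. Other activation genes called lower, 0 as reported, were 2 at 1 week and 2 at 2 weeks at the looser threshold, and at 2 weeks 1 with quantile normalization, 1 without scaling, and 0 to 1 with 1 library left out. Receptors called higher at 1 week, 2 as reported, were 1 with a pseudocount of 1, at a mean FPKM of at least 5, and without scaling, 8 at the looser threshold, and 1 to 2 with 1 library left out; receptors called lower, 1 as reported, were 2 with quantile normalization, 2 without scaling, and 3 at the looser threshold. Receptors called higher at 2 weeks, 2 as reported, were 1 at a mean FPKM of at least 5 and with the compared groups alone, 7 at the looser threshold, and 2 to 4 with 1 library left out. TGF-β pathway genes called higher, 2 as reported at each week, were 1 without scaling at each week, 6 and 8 at the looser threshold, and 1 to 2 at 1 week with 1 library left out, and those called lower, 0 as reported, were 1 without scaling at each week and 1 and 2 at the looser threshold. The causes were not tested. Counts of 3 fragments or fewer limit *Lrrc15* *in vitro*.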
